A study of Mus musculus with 4 samples.

Results

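Akr1c12 and Akr1c13 are 2 mouse genes for closely related aldo-keto reductases, and they were read by 3 of the 10861 probe sets analysed here. The platform annotation gives probe set 1422000_at to Akr1c12, 1418672_at to Akr1c13 and 1450455_s_at to both genes, and each was kept apart. The pair was chosen by its large relative log2 difference between the 2 KIT mutants on these same arrays, and the probe sets were then found by their symbols. The 2 genes stand among 6404 genes with a probe set of their own. RNA came from EML cells, a mouse lymphohematopoietic progenitor line. Every culture carried a mutant KIT receptor brought in by retrovirus: either Del417-419insY, altered in the extracellular part, or D816V, altered in the kinase. Transduced cells had been selected with geneticin, grown without factor until autonomous and sorted for KIT, so each mutant was 1 selected population, and no line without a mutant was analysed here. Each line was profiled in the absence of SCF, the ligand of KIT, and after 48 h in 250 ng/mL SCF, on 1 array per culture. The groups are thus Del417-419insY without SCF, Del417-419insY with SCF, D816V without SCF and D816V with SCF, with 1 array each and no replicate. How long the SCF-free cultures had been kept is not stated in the sources.

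Aldo-keto reductases are soluble enzymes that use NADPH or NADH to convert carbonyl groups to alcohols, and several also run the reverse reaction. The AKR1C branch acts on steroids, prostaglandins and products of lipid peroxidation, and its mouse genes lie in a cluster. Akr1c12 and Akr1c13 were cloned from stomach, and an aldo-keto reductase of myeloid cells that responds to interleukin 3 was described as Akra, a name that RefSeq lists as a synonym of Akr1c12.

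Akr1c13 and Akr1c12 are numbers 3 and 5 of 9 annotated genes of the cluster on chromosome 13, with Akr1c19 between them, and they lie on opposite strands. The 250 bases before each annotated start are shown because both genes were far higher in D816V cells, and because these windows are nearly the same sequence. Whether the windows bear on the array values was not tested. They come from RefSeq, build GRCm38.p6, at chr13:4279400-4279649 on the minus strand for Akr1c12 and chr13:4190937-4191186 on the plus strand for Akr1c13. Both are written 5′ to 3′, and capitals mark the bases that differ between them or that only 1 of them has inside their alignment.
Akr1c12: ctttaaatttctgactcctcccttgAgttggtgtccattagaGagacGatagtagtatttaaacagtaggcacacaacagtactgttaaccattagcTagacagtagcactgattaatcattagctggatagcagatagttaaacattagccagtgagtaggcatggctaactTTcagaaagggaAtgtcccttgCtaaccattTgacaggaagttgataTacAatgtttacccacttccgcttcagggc
Akr1c13: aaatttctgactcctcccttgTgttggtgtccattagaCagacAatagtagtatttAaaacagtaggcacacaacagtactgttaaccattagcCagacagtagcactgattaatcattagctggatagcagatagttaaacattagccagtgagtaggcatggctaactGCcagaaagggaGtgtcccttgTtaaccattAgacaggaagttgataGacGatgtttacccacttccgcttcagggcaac

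In the alignment 235 of 246 paired bases were identical (95.5%), 11 differed, and the Akr1c13 window held 1 further base. Between the other 27 pairs of the 8 cluster windows in the table, identity ran from 53.4% (Akr1c19 and Akr1e1) to 72.8% (Akr1c19 and Akr1c12). The 4 motifs searched on both strands were TTCNNNGAA, the palindrome of STAT factors, TGACNNNGC, the core of the antioxidant response element, AGATAA of GATA factors and TGANTCA of AP-1. As written, none of them occurs in either window, and of all 32851 windows of this length 7.02%, 10.2%, 9.99% and 6.75% hold them. AGATAA is only 1 form of the GATA motif. The form AGATAG stands in both printed windows and was not searched over all windows. The hexamer CATTAG, noticed after the sequences had been seen, occurs 4 times in the Akr1c12 window and 5 times in the Akr1c13 window, and 1 of the 5 copies covers a differing base. It occurs at least once in 6.36% of windows and 4 times or more in 3 windows: these and 1 of the non-coding gene Gm34098. These matches describe the letters and say nothing about binding.

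Both genes separated the lines by a wide margin on every array. The values are relative log2 values with a zero of its own for each probe set, which allows differences between arrays but no comparison of absolute levels or of 1 probe set's level with another's. The Akr1c12 probe set stood at -0.06 and -0.10 in Del417-419insY cells without and with SCF, and at 7.26 and 7.38 in D816V cells. Its 2 low values differed by 0.04 and its 2 high values by 0.12. The Akr1c13 probe set stood at -2.23 and -2.96 in Del417-419insY cells without and with SCF, and at 4.36 and 4.22 in D816V cells. The shared probe set stood at -2.28 and -2.98 in Del417-419insY cells without and with SCF, and at 4.95 and 4.76 in D816V cells. In all 3 probe sets both D816V arrays were far above both Del417-419insY arrays, which follows from the choice of the pair by this difference. The low values may lie at or above background, and the relative values do not show which. In bulk RNA, fewer cells that express a gene and less RNA per cell cannot be told apart.

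**Figure D1:**
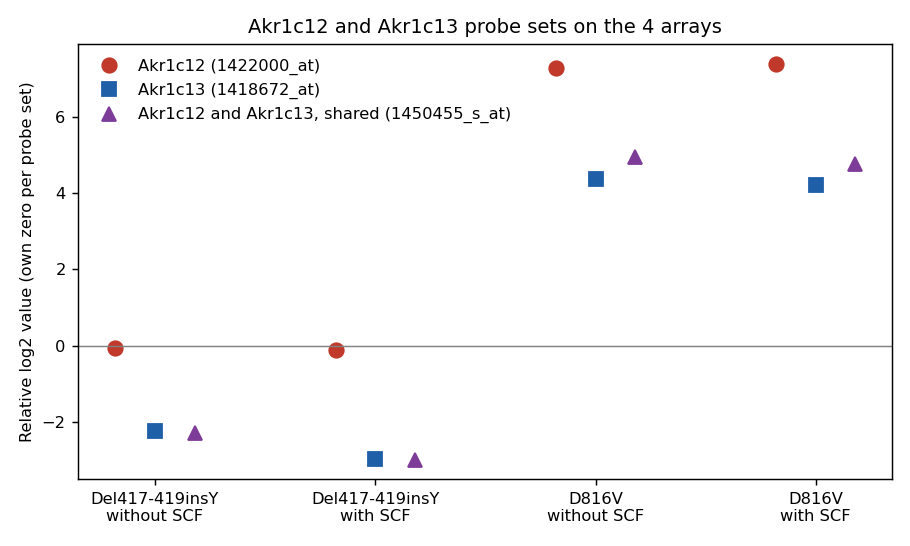
Relative log2 values (vertical axis, own zero per probe set) of the 3 probe sets on the 4 arrays (horizontal axis), 1 point per array. The Akr1c12 values lie at -0.06 and -0.10 in Del417-419insY cells and at 7.26 and 7.38 in D816V cells, and the other probe sets show the same split.

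Akr1c12 and Akr1c13 had been picked for their difference between the mutants, so this difference is given as a description without a test. On the log2 scale the Akr1c12 probe set was higher in D816V cells by 7.33 without SCF (160-fold) and by 7.48 with SCF (179-fold). The Akr1c13 probe set was higher by 6.59 (96.1-fold) and 7.19 (146-fold). The shared probe set was higher by 7.24 (151-fold) and 7.74 (214-fold). Of 10861 differences without SCF, Akr1c12 ranked 4 from the top, Akr1c13 8 and the shared probe set 6. With SCF the ranks were 4, 7 and 3. For scale, 6.10% of probe sets were 2-fold or more higher in D816V cells without SCF and 6.09% with SCF. The 2 conditions share no array, and the plot of both differences shows the 3 probe sets at the far end of the upper right quadrant.

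**Figure D2:**
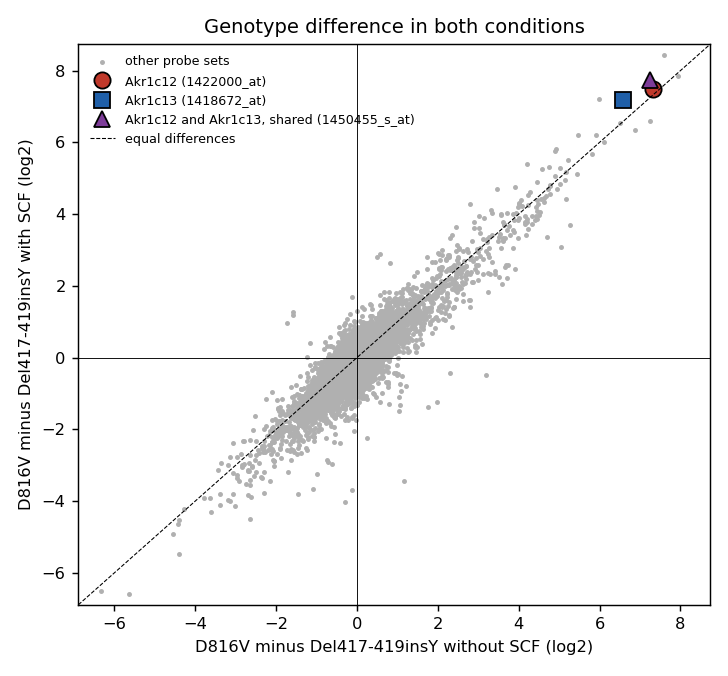
D816V minus Del417-419insY in log2 units without SCF (horizontal axis) and with SCF (vertical axis) for all 10861 probe sets, 1 point each, with the line of equal differences dashed. The marked probe sets of Akr1c12 and Akr1c13 lie between 6.59 and 7.33 without SCF and between 7.19 and 7.74 with SCF.

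Scaling the arrays again changed the size of the Akr1c12 difference more than that of the others. After cyclic loess it was 3.75 without and 3.78 with SCF, whereas the Akr1c13 probe set gave 6.30 and 6.88 and the shared probe set 6.71 and 7.20. The cause of this drop was not tested. Quantile normalization gave 6.09 and 6.10 for Akr1c12. The direction was the same under each of the 3 scalings.

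**Figure D3:**
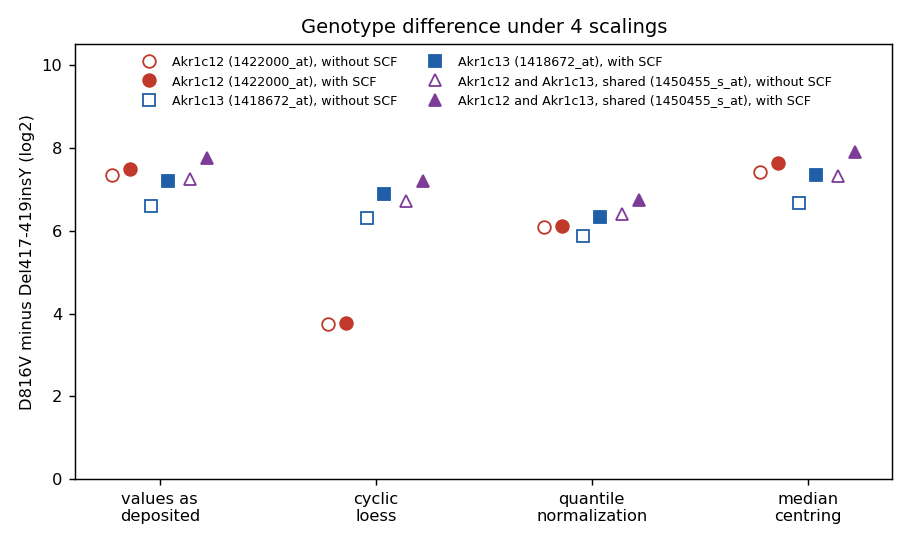
D816V minus Del417-419insY in log2 units (vertical axis) for the 3 probe sets under the deposited scaling and 3 others (horizontal axis), open symbols without SCF and filled symbols with SCF, 1 difference between 2 arrays per point. The Akr1c12 points drop to 3.75 and 3.78 after cyclic loess, and all points are above 0.

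The probe sets of the pair did not repeat each other exactly. The shared probe set exceeded the Akr1c13 probe set in the genotype difference by 0.65 without SCF and 0.56 with SCF. It differed from the Akr1c12 probe set by -0.09 and 0.26. In the SCF difference it stood next to Akr1c13, with a gap of 0.03 in the Del417-419insY line and -0.06 in the D816V line, against gaps of -0.67 and -0.31 from Akr1c12. Of the 3 probe sets, 2 carry the same design accession in the annotation, that for Akr1c12 and the shared one. Which transcripts each probe set reads was not tested, as no probe sequence was used here.

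The SCF differences of both genes were small beside the difference between the lines, and none passed the test. In Del417-419insY cells the Akr1c13 probe set was lower with SCF by -0.73 and the shared one by -0.70, while Akr1c12 stood at -0.04. Of all probe sets, 4.64% were as low as Akr1c13 or lower in this difference and 4.99% as low as the shared one. In D816V cells the differences were -0.13 for Akr1c13, -0.19 for the shared probe set and 0.12 for Akr1c12. None of the 3 reached 2-fold in either line, where 2.08% of probe sets (Del417-419insY) and 2.68% (D816V) were 2-fold or more lower. Fitted over both lines with limma, the SCF difference was -0.43 for Akr1c13 (95% interval -0.85 to -0.01, Benjamini-Hochberg adjusted p = 0.225). It was -0.45 for the shared probe set (-0.84 to -0.05, limma adjusted p = 0.185) and 0.04 for Akr1c12 (-0.29 to 0.37, limma adjusted p = 0.896). The fit called 5.21% of the 10861 probe sets for SCF. Its error term joins the disagreement of the lines in SCF response (1 degree of freedom) to a value pooled over all probe sets (5.92). The intervals and p-values thus rest mostly on the pooled value and measure no spread between cultures or arrays of 1 group. Subtracting the difference between the lines without SCF from that with SCF left 0.60 for Akr1c13, 0.51 for the shared probe set and 0.16 for Akr1c12, which could not be tested.

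**Figure D4:**
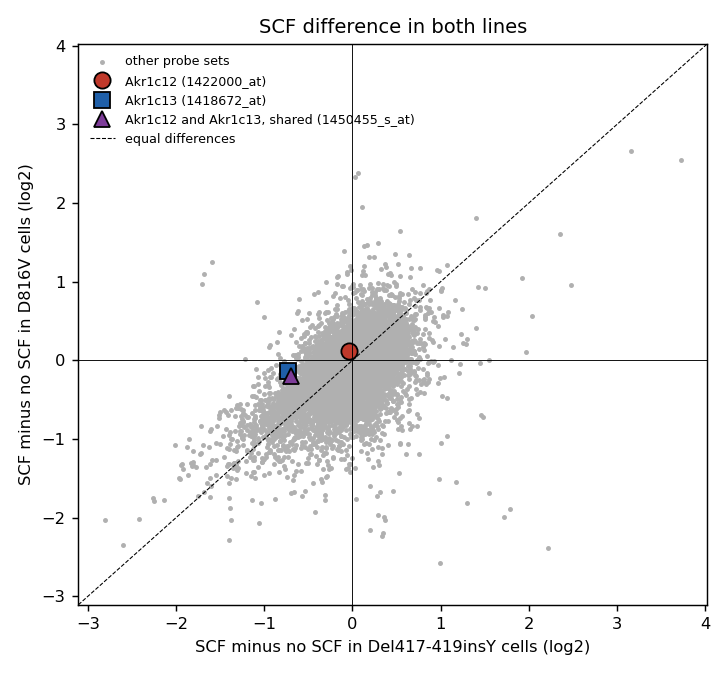
SCF minus no SCF in log2 units in Del417-419insY cells (horizontal axis) and D816V cells (vertical axis) for all 10861 probe sets, 1 point each, with the line of equal differences dashed. The Akr1c13 and shared probe sets lie at -0.73 and -0.70 in Del417-419insY cells, and Akr1c12 lies close to the origin.

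Few other aldo-keto reductases could be set beside the pair. Of 18 other genes of the family list, 2 had a probe set here, and the rest, with all 7 other genes of the cluster, were not analysed. Akr7a5, which reduces succinic semialdehyde and aflatoxin dialdehyde, differed by -0.19 (SE 0.12, limma adjusted p = 0.232). Kcnab2, a potassium channel beta subunit with an aldo-keto reductase fold, was lower in D816V cells by -0.44 (SE 0.12, limma adjusted p = 0.039). This is 1 lower and none higher of 2, where 42.6% of the 6404 genes were called for genotype, 17.9% higher and 24.7% lower. The call of Kcnab2 did not hold under any of the 3 other scalings, where its difference was -0.21, -0.28 and -0.32 after cyclic loess, quantile normalization and median centring.

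No measured gene flanking the cluster differed between the lines by as much as the pair. The protein-coding genes taken were 9 before and 15 after it. The table holds 8 of them, 7 after the cluster and only 1, Tasor2, before it, so the side before it is almost unmeasured. Of the 8, 1 was higher and 2 were lower in D816V cells (37.5%), a share near the 42.6% of all genes. Klf6, a zinc finger transcription factor and the first gene after the cluster, rose by 1.15 (SE 0.17, limma adjusted p = 0.0075), with 1.44 without and 0.86 with SCF. Mtr, methionine synthase, and Wdr37 were lower, by -0.81 and -0.67. The other members stood at 0.65 for the isoprenoid enzyme gene Idi1, 0.38 for the phosphofructokinase gene Pfkp, 0.13 for Gtpbp4 of ribosome assembly, -0.08 for Tasor2 and -0.36 for the mitochondrial peptidase gene Pitrm1, and none of these 5 passed. The median of the 8 was 0.02, beside -0.10 for all 6404 genes.

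NRF2, the transcription factor of the antioxidant response, drives many aldo-keto reductase genes, so its other targets were read as a list. Of 17 measured targets 1 was higher and 2 were lower in D816V cells, 17.6% of them against 42.6% of all genes, with a median of 0.19. Srxn1, sulfiredoxin, rose by 0.68 (SE 0.11, limma adjusted p = 0.011). Ptgr1, a reductase of prostaglandins and leukotrienes, fell by 1.33, and the glutathione transferase gene Gstm1 fell by 1.26, with -0.60 without and -1.92 with SCF. The familiar marker genes of the response stood at 0.39 for Nqo1, 0.65 for Hmox1 and 0.06 for Gclm, which did not pass. The count depended on scaling: cyclic loess and quantile normalization each gave 9 higher and 2 lower, and median centring 8 and 2. Over all genes the same scalings gave 1628 higher and 1263 lower, 1526 and 1387, and 1720 and 1302, against 1147 and 1579 as deposited, and moved the median of all genes from -0.10 to 0.04, 0.00 and 0.02.

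Enzymes of steroid and prostaglandin metabolism share substrates with the AKR1C enzymes. In D816V cells 4 were higher and 3 lower of 14, a share near the 42.6% of all genes, with a median that rounds to 0. Cyp11a1, the side chain cleavage enzyme that starts steroid synthesis, rose by 2.25 (SE 0.12, limma adjusted p = 3.8e-04). Hpgds, the haematopoietic prostaglandin D synthase, rose by 2.19, with 2.78 without and 1.60 with SCF, and Tbxas1, thromboxane synthase, by 2.02. Srd5a3, a polyprenol reductase, rose by 0.67. Ptgs2, inducible cyclooxygenase, fell by 1.50 (-0.77 without and -2.24 with SCF), Ptgr1, which is also in the NRF2 list, by 1.33 and Hsd17b11, a hydroxysteroid dehydrogenase, by 0.52. Hsd17b11 did not pass after cyclic loess, and neither Hsd17b11 nor Ptgs2 passed when the SCF term was left out of the fit, which left 1 lower gene.

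Of 15 measured genes for other enzymes of carbonyl and aldehyde metabolism 5 were higher and 1 lower (40.0%), a share near the 42.6% of all genes, with a median of 0.26. Among those that passed, the 4 highest were the short-chain dehydrogenase genes Rdh11 at 0.77, Dhrs7 at 0.76, Dcxr, a dicarbonyl reductase, at 0.62 and Dhrs7b at 0.46. Aldh2, mitochondrial aldehyde dehydrogenase, was at 0.43 and also passed, and the lower gene was Dhrs4 at -0.44, which did not pass under any of the 3 other scalings. None of these 6 calls held when the SCF term was left out of the fit.

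**Figure D5:**
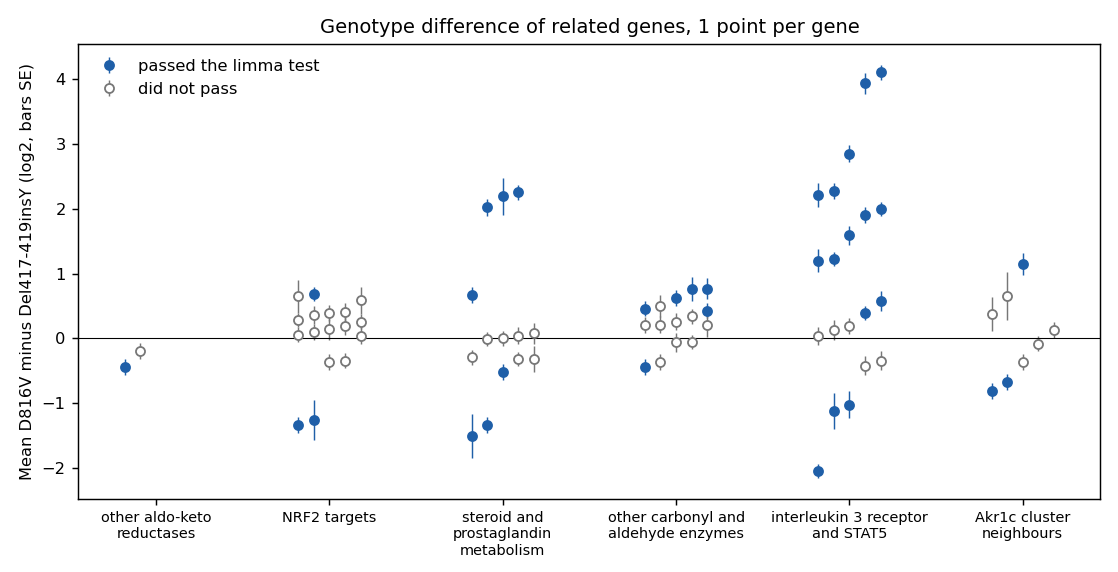
Mean D816V minus Del417-419insY difference in log2 units (vertical axis) of each measured gene, with bars for the standard error of the limma fit, in 6 gene lists (horizontal axis) that leave out Akr1c12 and Akr1c13. Filled points passed the limma test and open points did not, and the points reach from -2.04 (Il5ra) to 4.10 (Cish).

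Because Akra was described as responding to interleukin 3, the receptor chains for that cytokine and the STAT5 pathway below them were listed as well. Of 20 measured genes 12 were higher and 3 lower in D816V cells (75.0%), where 17.9% of all genes were higher and 24.7% lower, with a median of 0.89. The list was drawn up with earlier results of these data known, so this excess is only a description. The shared beta chain gene Csf2rb and its mouse relative Csf2rb2 rose by 1.20 and 1.59, while the ligand-specific chain Il3ra stood at 0.04. These chains were named after their values were seen. Il5ra, the interleukin 5 chain that pairs with the same beta chain, fell by 2.04. The STAT5 feedback genes Cish, Socs2 and Socs1 rose by 4.10, 3.93 and 2.27 and the kinase gene Pim1 by 2.85. Stat5a itself fell by 1.02 and the repressor gene Bcl6 by 1.12. Whether any of this bears on Akr1c12 and Akr1c13 was not tested.

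With SCF none of the 75 genes in these 6 lists passed the limma test, where 0% of the 6404 genes did. Of the 75, 21 had an unadjusted p under 0.05, and of all genes 1186 did (18.5%).

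Most measured markers of mast cells were higher in D816V cells, as the pair was. Of 10 measured mast cell markers 8 were higher in D816V cells and none lower, where 17.9% of all genes were higher. The median genotype difference of the 10 was 1.79. This list, too, was drawn up with earlier results of these data known. The largest differences were those of Fcer1a, the alpha chain of the IgE receptor, at 6.06 and Tph1 of serotonin synthesis at 5.37. Ms4a2 at 0.62 and Slc18a2 at 0.28 did not pass. The fitted SCF differences of Mcpt4 and Tpsb2 were -1.96 and -1.64, and the median of the 10 was -0.46. None of the 6404 genes passed for SCF, and the smallest limma adjusted p was 0.089, which Mcpt4 had. Haematopoietic progenitor markers were 1 higher and 4 lower of 7, where 24.7% of all genes were lower. Of the 4, Lmo2 at -0.43 did not pass under any of the 3 other scalings. Another was Kit at -1.42, whose probe sets were not checked for reading the introduced mutant receptor. Of 4 monocyte and granulocyte markers 1 was lower. The 1 measured fibroblast marker, Pdgfrb, stood at -0.12, and the 15 listed markers of gastrointestinal epithelium and liver, where Akr1c genes are abundant, were not analysed. Whether the cells that carry these markers are the ones that carry Akr1c12 and Akr1c13 was not tested, and relative values cannot show whether the progenitor markers of EML cells were present.

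The genes most like the pair over the 4 arrays were found by the Euclidean distance to the mean centred pattern of Akr1c12 and Akr1c13, which was -3.38 and -3.76 in Del417-419insY cells without and with SCF and 3.58 and 3.57 in D816V cells. As this pattern is their own mean, Akr1c12 and Akr1c13 lay at the same distance of 0.37 from it by construction. That value does not rank them against other genes. The median gene lay at 7.26. Most of the pattern is the genotype difference by which the pair was chosen. The nearest of the other genes were Ifitm3 at 0.44, Trgv4 at 0.83, then Gzma, and Fcer1a at 1.10, followed by Tph1 at 1.78, Metrnl at 1.81, Gbp2 at 1.99 and Crybg1 at 2.04. In the SCF difference Gzma, with -1.07 in Del417-419insY and -0.21 in D816V cells, was lower in the same line as Akr1c13, whereas Ifitm3 stood at 0.15 and 0.08.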

How the data were processed

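RNA of 4 cultures was hybridised to Affymetrix M430 2.0 arrays, 1 per group. The authors' pipeline was RMA, according to the submitters' processing notes, with no version given in the sources used here. The deposited values are taken as log2, the scale RMA gives, and lie around a zero that the sources used here do not explain. The table holds 10861 of 45101 probe sets by an unstated filter. Symbols came from the platform annotation (9633 probe sets with 1 symbol, 264 with several, 964 with none), updated by gene ID through RefSeq (11 without a match).

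Probe sets were fitted in R 4.3.3 with limma 3.58.1 (lmFit and eBayes, genotype + SCF, 1 residual degree of freedom), adjusted by Benjamini-Hochberg over all 10861, threshold 0.05, two-sided. Gene lists used 6404 genes, each as the mean over its single-symbol probe sets. On simulated data for the genotype comparison of 6404 genes, 100 of 100 changes of 3 log2 units and 91 of 100 of 1 were called, and 16 of 6204 unchanged genes. The simulated noise was independent and drawn from the prior that the fit itself estimated. The run thus checks the calculation, and cannot show whether the p-values of these unreplicated arrays are right. Named are all members and measured family and flanking genes, and per other list up to 4 higher and 4 lower among those called, and the 8 genes nearest to the pair in pattern. Aldh2, receptor chains and NRF2 markers that did not pass, and Pdgfrb, were added after their values were seen. The same holds for the mast cell markers Ms4a2, Slc18a2, Mcpt4 and Tpsb2. Windows were aligned with Biopython 1.88. The members and lists were chosen with earlier results of these data known. Alternatives were 3 scalings, 2 priors (1 with a trend on the mean relative value), a filter on low relative values and fits without the other factor. Others were the probe set with the highest mean relative value per gene, and the gene table. As each probe set has its own zero, the trend, the filter and the highest mean do not follow signal intensity. Alternatives on background and slide need scanner files and were not run, and the number of arrays limits precision.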

Additional observations from a re-analysis of the deposited data

Results flagged for a closer look

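Opposite signs of the SCF difference in the 2 lines drew attention to 6 results, each from 1 array per group, and the difference between the lines was not tested. The Akr1c12 probe set had -0.04 in Del417-419insY and 0.12 in D816V cells. Among the genes flanking the cluster, Idi1 had -0.84 and 0.76, Pfkp 0.36 and -0.70, Klf6 0.34 and -0.23, Wdr37 0.003 and -0.18, and Pitrm1 0.13 and -0.01. Of all 6404 genes 34.3% had opposite signs. No group had enough arrays to look for an outlying sample.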

How the results depend on the processing

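No single genotype difference of the pair changed sign under the 3 scalings. After cyclic loess the differences without and with SCF were 3.75 and 3.78 for the Akr1c12 probe set, 6.30 and 6.88 for Akr1c13 and 6.71 and 7.20 for the shared one. After quantile normalization they were 6.09 and 6.10, 5.86 and 6.32, and 6.40 and 6.74. Median centring moved the Akr1c12 difference with SCF to 7.63. The SCF difference in Del417-419insY cells became 0.12 for Akr1c12 after cyclic loess, and -0.55 for Akr1c13 and -0.48 for the shared probe set after quantile normalization. The fitted SCF difference of Akr1c12 turned to -0.0046 after quantile normalization. No alternative called an SCF difference of the pair: adjusted p (limma) ran from 0.172 to 1 for Akr1c13, 0.138 to 1 for the shared probe set and 0.590 to 1 for Akr1c12.

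For genotype, calls in the family list fell to 0 under all 3 scalings, without the SCF term and by the highest-mean probe set, and the filter on low values left 0 of its genes. NRF2 targets had 11 calls after loess and quantile normalization, 10 after centring and 5 by the highest-mean probe set. Carbonyl enzymes had 0 without the SCF term. For SCF, centring gave 1 call among NRF2 targets, 1 among carbonyl enzymes, 3 in the interleukin 3 list and 1 flanking gene. The highest-mean probe set gave 1, 0, 3 and 1, and loess 0, 0, 1 and 1. Over all genes SCF calls were 0 as deposited, 2 after quantile normalization and 10 with a trend on the mean relative value. They were 42 after loess, 256 after centring, and again 256 by the highest-mean probe set. Probe sets gave 566, and 330 to 773 under the alternatives other than leaving out the genotype term, which gave 0. Without the SCF term 1603 genes were called for genotype, against 2726. The causes were not tested. Signal over background is unknown. No paired analysis was possible because each group has 1 array and so no replicate numbers to pair, apart from the comparison of SCF within both lines that the fit itself makes.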
